A study of Mus musculus with 8 samples.

Results

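Mitotic astrocytes are the nuclei placed in the class M-Astrocyte by the authors' table of nuclei from visual cortex (VC) of mice aged 14 postnatal days (P14). The class held 427 of 44021 nuclei, and its members were chosen by that class name alone. Nuclei released from frozen tissue were sorted as negative for NeuN, which marks the nuclei of neurons, and sequenced as 8 single nucleus libraries on the 10x Chromium platform. Tissue of 2 mice, alike in genotype and sex, went into each library. All mice were C57BL/6J.

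The libraries formed 4 groups of 2, each with a male library (replicate 1) and a female library (replicate 2). VGlut2 WT mice carry the floxed transporter gene without cre (labelled VGlut2 f/f). VGlut2 cKO mice are their littermates with cre as well (labelled VGlut2 f/f;ROR acre). They lose the vesicular glutamate transporter of thalamic neurons, where the study reports that this cre is expressed. Recombination in astrocytes was not checked here. Ip3r2 KO mice lack the type 2 IP3 receptor, the calcium release channel of astrocyte stores, in every cell, and Ip3r2 WT mice do not. For this model the study used littermate and non-littermate pairs, and the labels do not say which these libraries hold. The same-numbered libraries of a model are of the same sex. By the study's methods a WT and a mutant sample went through the sort in parallel on a given day, but the labels do not say which. Effects of sex, day of processing and litter could therefore not be separated here.

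Astrocytes of the rodent cortex arise from radial glia around birth, and for some weeks afterwards their number grows largely because astrocytes already in the tissue divide in place. A dividing nucleus is recognised in single nucleus data by genes of the cell cycle, such as Mki67, which marks cycling cells, and Top2a, which encodes the topoisomerase that untangles chromosomes, beside genes of its lineage, such as Slc1a3, an astrocytic glutamate transporter. Oligodendrocyte precursor cells (OPCs) and microglia also divide at this age, and each has a mitotic class of its own here (M-OPC, 353 nuclei, and M-Microglia, 447 nuclei). Expression values of single genes were not analysed here, so neither these 3 markers nor the deleted genes could be checked in the libraries. What follows rests on counts of nuclei, on the RNA molecules counted per nucleus (unique molecular identifiers, UMIs), on detected genes, on the mitochondrial share of the UMIs and on the position of the nuclei in the authors' embedding.

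Libraries held 4767 to 5920 nuclei and 8824112 to 12948023 UMIs. Of the 44021 nuclei 475 carried a barcode also found in another library (1.08%), among them 4 mitotic astrocytes. The non-mitotic astrocytes, 11532 nuclei in all, were divided by the authors into Upper-Astro-1 (4108 nuclei), Upper-Astro-2 (4499), Deep-Astro (1852) and WM-Astro (1073, white matter). Upper-Astro-1 and Upper-Astro-2 are the study's upper and mid astrocytes.

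The first measurement was how many astrocytes were in the mitotic class. The male libraries held 77 mitotic astrocytes in VGlut2 WT, 74 in VGlut2 cKO, 46 in Ip3r2 WT and 54 in Ip3r2 KO. The female libraries held 38, 41, 50 and 47 in the same order of groups. As a share of all astrocytes, mitotic ones included, this was 4.58% in the male VGlut2 WT library (Wilson 95% interval 3.68 to 5.69), 4.52% in the male VGlut2 cKO library (3.62 to 5.64), 4.30% in the male Ip3r2 WT library (3.24 to 5.68) and 4.04% in the male Ip3r2 KO library (3.11 to 5.24). The female libraries stood at 2.45% in VGlut2 WT (1.79 to 3.34), 2.85% in VGlut2 cKO (2.11 to 3.84), 3.10% in Ip3r2 WT (2.36 to 4.06) and 2.89% in Ip3r2 KO (2.18 to 3.82). The 4 male libraries therefore lay above the 4 female ones with no overlap, and the WT and mutant libraries of each model overlapped. The intervals of single libraries cover counting error only.

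**Figure D1:**
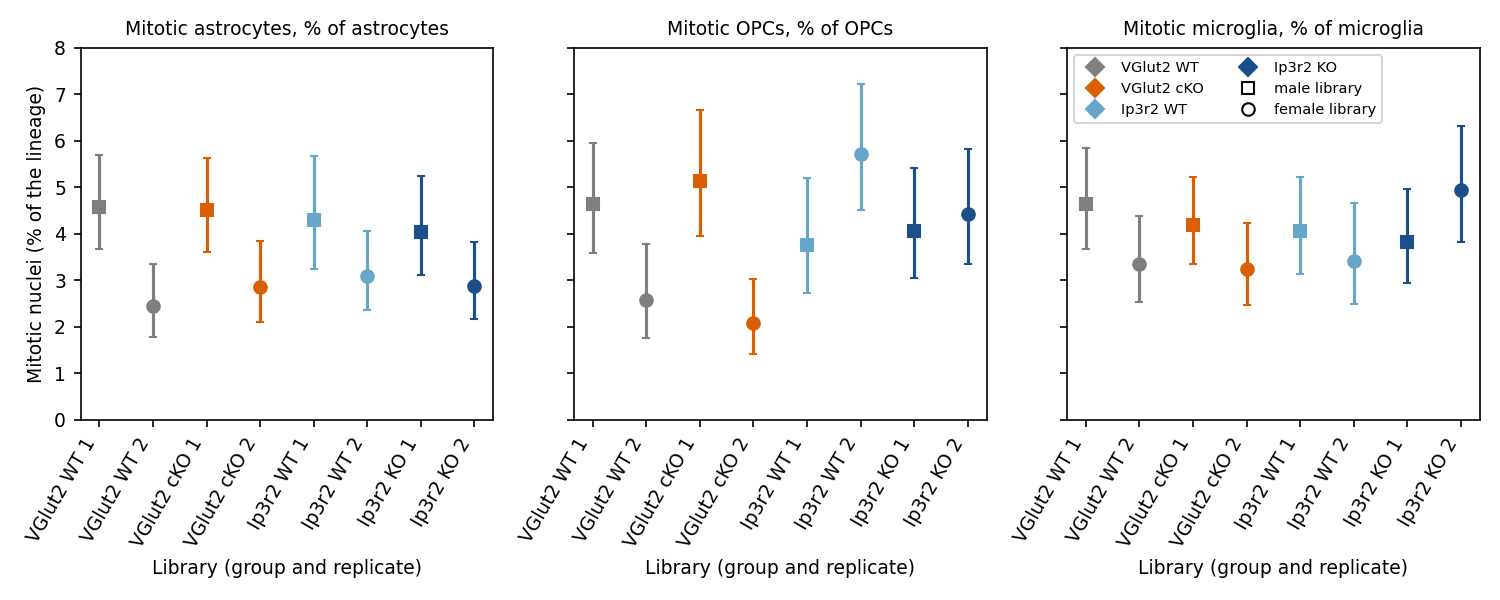
Mitotic nuclei as a percentage of their lineage (mitotic and non-mitotic nuclei together) in each of the 8 libraries, for astrocytes, OPCs and microglia; colours mark the group, squares male and circles female libraries, and bars are Wilson 95% intervals. In astrocytes the male libraries run from 4.04% to 4.58% and the female ones from 2.45% to 3.10%, whereas in the other lineages the sexes overlap.

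By sex, mitotic astrocytes were 4.36% ± 0.246 of astrocytes in male and 2.82% ± 0.270 in female libraries (SD, n = 4 libraries each), higher in the male library in 4 of 4 groups. The odds were 1.57-fold higher in males. An exact two-sided permutation of 4 libraries against 4 gave p = 0.0286, the smallest it can give, and 0.0857 after adjustment over the 3 lineages. Exchanging the sexes within each of the 4 groups, an exact test that cannot go below 0.125, gave that value. Both tests take the libraries as independent, although a WT and a mutant sample shared each day of processing. If those were the same-sex libraries of a model, only 2 pairs of each sex remain. An exact permutation of 2 against 2 cannot go below p = 0.333. The comparison was chosen after its values had been seen. The share of astrocytes also falls when non-mitotic astrocytes are more numerous. Male then female, these numbered 1025 and 1565 in Ip3r2 WT and 1282 and 1582 in Ip3r2 KO. The mitotic counts there were 46 and 50, and 54 and 47. In the Ip3r2 model the lower female share thus went mainly with more non-mitotic astrocytes. In the VGlut2 model these were not more numerous in females (1603 and 1513 in WT, 1563 and 1399 in cKO).

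In the other dividing lineages the sexes overlapped. Mitotic OPCs were 4.40% ± 0.610 of OPCs in male and 3.70% ± 1.69 in female libraries (n = 4 each; exact permutation p = 0.371), higher in the male library in 2 of 4 groups. In the VGlut2 libraries they were 4.63% and 5.14% in males against 2.58% and 2.07% in females, and in the Ip3r2 libraries 3.77% and 4.06% against 5.72% and 4.43%. Mitotic microglia were 4.18% ± 0.345 of microglia in male and 3.73% ± 0.804 in female libraries (n = 4 each; exact permutation p = 0.286), higher in the male library in 3 of 4 groups, the exception being Ip3r2 KO (3.83% in males and 4.93% in females).

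As a share of all nuclei, mitotic astrocytes were 0.965% to 1.32% in male and 0.709% to 0.930% in female libraries. Female minus male was -0.49 in log2 odds (95% interval -0.98 to -0.01; limma, unadjusted p = 0.0470, adjusted p = 0.400), and 0 of 17 classes passed this test (0%; 2 had an unadjusted p under 0.05). Since other cell types change the denominator, the class was also set against other classes by ratio. Against all non-mitotic astrocytes the ratio was lower in females by a log2 difference of -0.65 (-1.26 to -0.05), which did not pass (limma adjusted p = 0.180). Without either Ip3r2 WT library, which leaves the sexes compared in the other 3 groups, it was -0.70 and passed (adjusted p = 0.0168). Upper-Astro-2, the mid astrocytes, was itself more numerous in the female library of each group. Its counts, male then female, were 579 and 710 in VGlut2 WT and 491 and 672 in VGlut2 cKO. In Ip3r2 WT they were 348 and 484, and in Ip3r2 KO 440 and 775. Both classes thus enter the ratio of mitotic astrocytes to Upper-Astro-2. That ratio fell by 0.99 on the log2 scale in females and passed (95% interval -1.60 to -0.39; limma adjusted p = 0.0219), the 1 of 10 ratios called (10%). That call was lost among nuclei of at least 1000 UMIs (-0.98, adjusted p = 0.175) and without any library of VGlut2 WT, VGlut2 cKO or Ip3r2 KO (-0.89 to -0.99, adjusted p 0.202 to 0.270).

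Against the remaining astrocytes the sex difference did not pass, at -0.52 for Upper-Astro-1 (limma adjusted p = 0.296), -0.41 for WM-Astro (0.448) and -0.18 for Deep-Astro (0.684). Set against M-OPC and M-Microglia it was -0.19 (limma adjusted p = 0.684) and -0.10 (0.764), with 95% intervals of -0.79 to 0.42 and -0.70 to 0.51. A sex gap particular to mitotic astrocytes among the 3 mitotic classes was therefore not shown.

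The gap between the sexes was larger in the VGlut2 libraries. There the share of mitotic astrocytes among all nuclei was lower in females by a log2 difference of -0.85 (95% interval -1.42 to -0.27; limma adjusted p = 0.0448), 1 of the 2 classes of 17 called (11.8%). The other was M-OPC, at -1.01 (adjusted p = 0.0188). In this fit limma gave all 17 classes 1 shared standard error (0.284) from the pooled spread. In the Ip3r2 libraries the difference for mitotic astrocytes was -0.14 (-0.72 to 0.44; adjusted p = 0.881), in a comparison with 1 of 17 classes called (5.88%). The difference between these gaps was -0.70 (-1.52 to 0.11) and did not pass for mitotic astrocytes (adjusted p = 0.374), while M-OPC was the 1 class of 17 that did (5.88%; -1.42, adjusted p = 0.0203). With edgeR the VGlut2 gap of mitotic astrocytes was -0.84 and missed the threshold (adjusted p = 0.0733), and it was also lost without any 1 of the 4 VGlut2 libraries (-0.79 to -0.90, adjusted p 0.387 to 0.888).

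Depth also moved with sex in part. The median mitotic astrocyte had 1323 and 1363.5 UMIs in the male and 1517 and 1884 in the female VGlut2 libraries, and 1848 and 2076.5 in the male and 1935 and 1933 in the female Ip3r2 libraries (WT, then mutant). Female minus male was 0.16 on the log2 scale (95% interval -0.09 to 0.40; limma adjusted p = 0.555; 1 of 15 classes called, 6.67%). For detected genes it was 0.10 (adjusted p = 0.743; 1 of 15 called, 6.67%). Among nuclei of at least 1000 UMIs, mitotic astrocytes were 3.65% ± 0.118 of astrocytes in male and 2.37% ± 0.463 in female libraries (n = 4 each; exact permutation p = 0.0286, adjusted p = 0.0857), and the ranges, 3.53% to 3.79% and 1.81% to 2.88%, still did not overlap.

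The next comparison was between genotypes, and asks whether proliferation of astrocytes changes when thalamic glutamate release or astrocyte calcium release is lowered. Mitotic astrocytes were 2.45% and 4.58% of astrocytes in VGlut2 WT against 2.85% and 4.52% in VGlut2 cKO, and 3.10% and 4.30% in Ip3r2 WT against 2.89% and 4.04% in Ip3r2 KO (female, then male). The values of WT and mutant libraries of the same sex were thus close to each other. Within such a pair the share differed by 0.02 to 0.22 in log2 odds, while the means of the 4 pairs spanned 0.81. For M-OPC the same figures were 0.11 to 0.38 and 1.15, and for M-Microglia 0.05 to 0.55 and 0.44.

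The share of all nuclei differed by -0.03 in log2 odds between VGlut2 cKO and WT (95% interval -0.81 to 0.75; limma adjusted p = 0.980), with 0 of 17 classes called (0%; 0 at an unadjusted p under 0.05). Between Ip3r2 KO and WT it differed by -0.06 (-0.85 to 0.72; adjusted p = 0.994), again with 0 of 17 called (0%; 1 at an unadjusted p under 0.05). The difference between the models was 0.03 (-1.07 to 1.14; adjusted p = 0.959) and that between their control lines -0.03 (-0.81 to 0.75; adjusted p = 0.931), each with 0 of 17 classes called (0%; 1 at an unadjusted p under 0.05 in each). edgeR also called 0 of 17 in these 4 comparisons. The intervals still allow a change of the odds by more than 1.5-fold in either direction.

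Ratios to single classes gave the same picture. Mitotic to non-mitotic astrocytes differed by 0.10 on the log2 scale in the VGlut2 model (95% interval -0.88 to 1.08; limma adjusted p = 0.964) and by -0.10 in the Ip3r2 model (-1.08 to 0.88; adjusted p = 0.850). Of 10 ratios 0 were called in either model (0% each; 0 at an unadjusted p under 0.05). The ratios of M-Astrocyte to a single astrocyte group lay between -0.02 (Deep-Astro) and 0.18 (Upper-Astro-2) in the VGlut2 model, and between -0.44 (Upper-Astro-2) and 0.20 (Upper-Astro-1) in the Ip3r2 model.

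**Figure D2:**
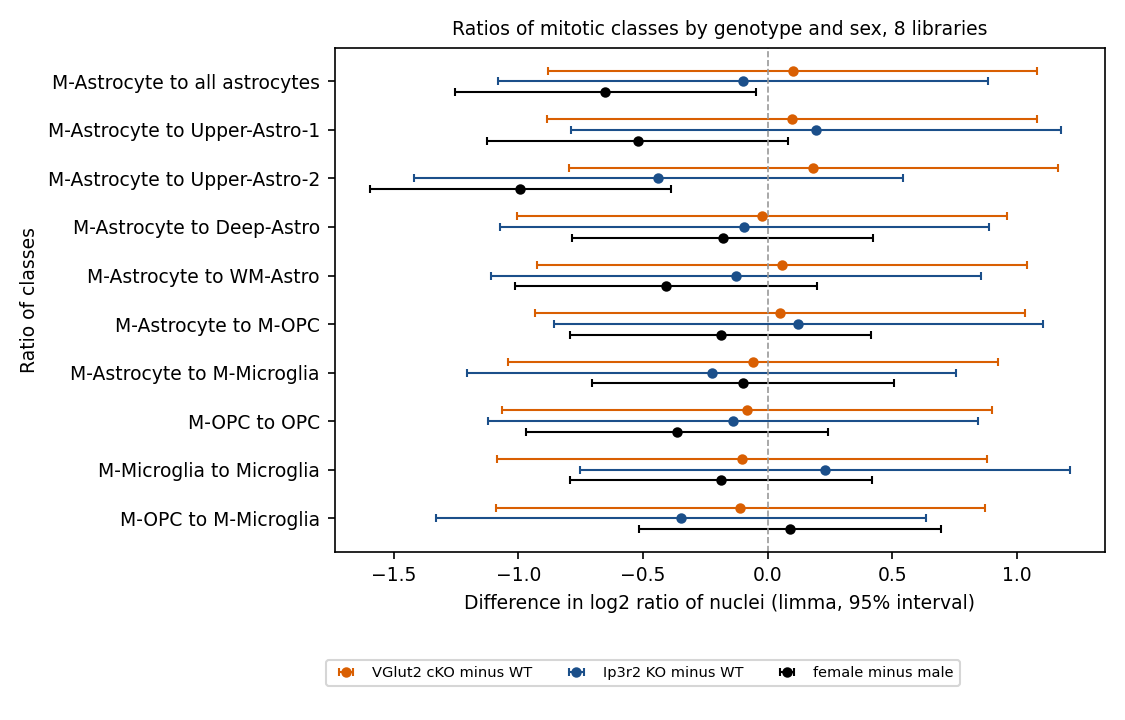
Difference in the log2 ratio of nuclei for 10 pairs of classes, with limma 95% intervals, for VGlut2 cKO minus WT, Ip3r2 KO minus WT and female minus male libraries (8 libraries in each fit). The intervals of both genotype comparisons cross 0 in all 10 ratios, and the sex difference of M-Astrocyte to Upper-Astro-2, at -0.99, is the one past the adjusted threshold.

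The share of dividing nuclei was also set beside that of the other lineages. Over the 8 libraries mitotic nuclei were 3.59% ± 0.857 of astrocytes, 4.05% ± 1.23 of OPCs and 3.95% ± 0.621 of microglia (SD, n = 8). Within a library astrocytes differed from OPCs by -0.46 ± 1.13 percentage points, lower in 6 of 8 libraries, and from microglia by -0.36 ± 0.792, lower in 5 of 8. In exact sign flips over the 8 libraries, two-sided, on log2 odds, neither difference passed (adjusted p = 0.328 each, 0 of 2, 0%). With nuclei under 1000 UMIs left out both passed (-0.41 for OPCs, adjusted p = 0.0391, and -0.93 for microglia, adjusted p = 0.0156, exact sign flips over 8 libraries). That filter removes unequal parts of the classes. It took 19.7% of the mitotic astrocytes, 1.70% of M-OPC, 33.3% of M-Microglia and 47.8% of the non-mitotic microglia.

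RNA content set the mitotic astrocytes apart from the other dividing classes. The median mitotic astrocyte had 1323 to 2076.5 UMIs in the 8 libraries (mean of the medians 1735 ± 289, SD, n = 8), against 2249 ± 360 in non-mitotic astrocytes. It was lower in 8 of 8 libraries, by 0.38 ± 0.0620 on the log2 scale, or 0.771-fold (exact sign flips, p = 0.00781, the smallest 8 libraries can give, adjusted p = 0.00925). This test belonged to a family of 45 comparisons of classes within libraries, adjusted together, of which 42 passed (93.3%). Most differences between classes in this table therefore pass, and it is their size and direction that differ. The class names came from clustering the expression of these same nuclei, so UMIs and genes are not wholly independent of them.

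Among the astrocyte groups the mitotic nuclei fell between the white matter and the deep astrocytes in UMIs. Upper-Astro-1 had a mean of library medians of 2581 ± 415 UMIs, Upper-Astro-2 2289 ± 379, WM-Astro 2069 ± 387 and Deep-Astro 1579 ± 255 (SD, n = 8). Against these the mitotic astrocytes were lower by 0.57, 0.40 and 0.25 on the log2 scale for the first 3, each in 8 of 8 libraries, and higher by 0.13 for Deep-Astro, also in 8 of 8 (exact sign flips, adjusted p = 0.00925 each). The order against Deep-Astro depended on the summary. By means of log2 UMIs, which give weight to nuclei with little RNA, the difference was -0.03 and did not pass (exact sign flips, adjusted p = 0.445).

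M-OPC and M-Microglia went the other way. Mitotic OPCs had 2799 ± 477 UMIs against 2160 ± 342 in OPCs, 1.29-fold more and higher in 8 of 8 libraries. Mitotic microglia had 1220 ± 244 against 1039 ± 173 in microglia, 1.17-fold more and higher in 8 of 8. The gap between mitotic and non-mitotic nuclei was thus lower in astrocytes than in OPCs by 0.75 ± 0.0727 on the log2 scale and than in microglia by 0.60 ± 0.136, each in 8 of 8 libraries (exact sign flips, adjusted p = 0.00925 each). For detected genes these differences were -0.38 ± 0.0494 and -0.24 ± 0.0890, with the same counts of libraries and the same adjusted p in exact sign flips.

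**Figure D3:**
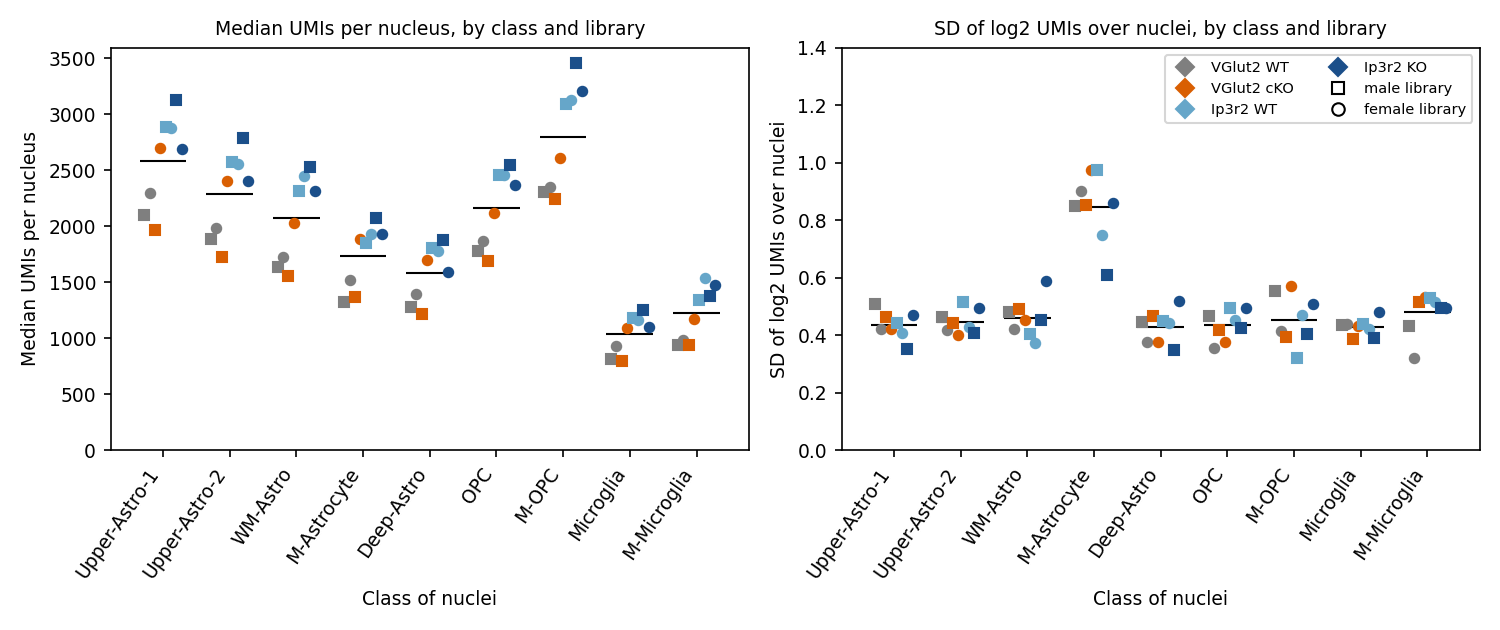
Median UMIs per nucleus (left) and standard deviation of log2 UMIs over nuclei (right) for 9 classes, 1 point per library, with the mean of the 8 libraries as a line. Mitotic astrocytes have fewer UMIs than 3 of the 4 astrocyte groups in 8 of 8 libraries, mitotic OPCs and microglia have more than their non-mitotic counterparts, and the spread of mitotic astrocytes, 0.609 to 0.974, lies above that of the other classes shown.

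The mitotic astrocytes were also unusually uneven in RNA content. The SD of log2 UMIs over the nuclei of a library was 0.846 ± 0.120 (0.609 to 0.974, n = 8), against 0.501 ± 0.0381 in all non-mitotic astrocytes joined, 0.454 ± 0.0862 in M-OPC and 0.479 ± 0.0713 in M-Microglia. It was the largest of the 20 classes in 7 of 8 libraries, and second in the other, the female VGlut2 WT library. Each of the 7 comparisons of this spread, with the 4 astrocyte groups, all astrocytes, M-OPC and M-Microglia, was higher in 8 of 8 libraries (exact sign flips, adjusted p = 0.00925 each).

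The spread lay on the side of low RNA content. Over all libraries the mitotic astrocytes ran from 392 UMIs at the 5th percentile to 3105 at the 95th, with a median of 1670, while non-mitotic astrocytes ran from 1106 to 3764 with a median of 2204.5. In the mitotic class 84 of 427 nuclei had under 1000 UMIs (19.7%), against 372 of 11532 non-mitotic astrocytes. By library this share was 24.7% (male VGlut2 WT), 28.9% (female VGlut2 WT), 28.4% (male VGlut2 cKO), 24.4% (female VGlut2 cKO), 19.6% (male Ip3r2 WT), 8.0% (female Ip3r2 WT), 7.41% (male Ip3r2 KO) and 12.8% (female Ip3r2 KO). It was higher in all 4 VGlut2 libraries than in any Ip3r2 library, and the VGlut2 libraries were also the shallower ones, with 1343 to 1876 UMIs per median nucleus against 1882 to 2242. Of the 4 astrocyte groups, Deep-Astro had the highest share of nuclei under 1000 UMIs, 185 of 1852 (9.99%). In the male VGlut2 WT and cKO libraries Deep-Astro had 23.1% and 24.3%, near the values of the mitotic class there. In the remaining libraries Deep-Astro had 0.810% to 10.2%.

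Measured against the astrocytes of the same library, which sets the depth of a library aside, 141 of 427 mitotic astrocytes (33.0%) were below the 10th percentile of UMIs of the non-mitotic ones and 14 (3.28%) above the 90th. The lower tail held 25.5% to 44.7% of the class by library and the upper one 0% to 8.0%. These percentiles were of the astrocyte groups joined, and the tails were not measured against Deep-Astro alone. The tails of the other dividing classes lay the opposite way. Of M-OPC 2.83% were below the 10th percentile of OPCs and 36.8% above the 90th, and of M-Microglia 5.82% and 29.1%.

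**Figure D4:**
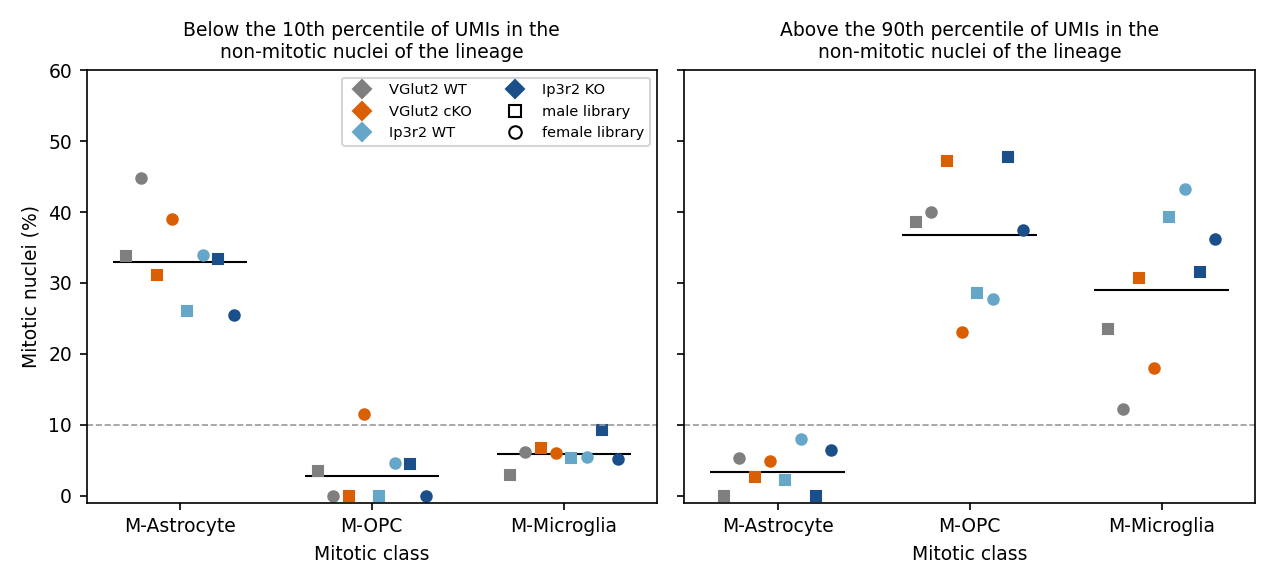
Percentage of mitotic nuclei with fewer UMIs than the 10th percentile (left) or more than the 90th percentile (right) of the non-mitotic nuclei of the same lineage and library, 1 point per library; black lines are all libraries together and the dashed line marks 10%. In each library at least 25.5% of the mitotic astrocytes are in the lower tail, and at most 8.0% in the upper one.

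A cut on UMIs narrows any spread, and it narrowed that of the mitotic astrocytes more than that of other astrocytes. Among nuclei of at least 1000 UMIs, a cut chosen here, the spread of mitotic astrocytes exceeded that of all astrocytes by 0.02 in place of 0.34 and did not pass (exact sign flips, adjusted p = 0.482). The comparisons of spread with Upper-Astro-1, Upper-Astro-2, WM-Astro and M-OPC did not pass there either (0.066 to 0.071, exact sign flips, adjusted p 0.0603 to 0.126), while those with Deep-Astro and M-Microglia did. The difference of the gap from that of microglia changed sign (-0.06, adjusted p = 0.197). The lower UMIs stayed, at -0.25 on the log2 scale against all astrocytes in such nuclei (exact sign flips, adjusted p = 0.0121), but against WM-Astro the difference was -0.12 and no longer passed (adjusted p = 0.0665).

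At a given RNA content, mitotic astrocytes had more detected genes. Their median number of detected genes, 1129 ± 151 per nucleus, was close to the 1162 ± 147 of non-mitotic astrocytes (SD, n = 8; log2 difference -0.04, exact sign flips, adjusted p = 0.0879), although they had fewer UMIs. When each mitotic astrocyte was compared with astrocytes of its own library in the same UMI bin (0.25 on the log2 scale), which could be done for 410 of 427, it had 1.17-fold more genes (log2 difference 0.22 ± 0.0208). The excess was between 1.14-fold and 1.19-fold in every library (8 of 8 higher; exact sign flips, adjusted p = 0.00925). Against single groups it was 0.22 for Upper-Astro-1, 0.24 for Upper-Astro-2, 0.21 for Deep-Astro and 0.24 for WM-Astro on the log2 scale, each in 8 of 8 libraries with the same adjusted p in exact sign flips.

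Dividing OPCs and microglia shared this feature, to a smaller degree. At matched UMIs M-OPC had 1.07-fold as many genes as OPCs and M-Microglia 1.02-fold as many as microglia, each higher in 8 of 8 libraries. The excess of mitotic astrocytes over their lineage was larger than that of M-OPC by 0.13 ± 0.0231 and that of M-Microglia by 0.19 ± 0.0140 on the log2 scale, in 8 of 8 libraries (exact sign flips, adjusted p = 0.00925 each). Set directly beside the other dividing classes at matched UMIs, mitotic astrocytes had 0.07 ± 0.0283 more genes than M-OPC on the log2 scale (exact sign flips, adjusted p = 0.00925). This difference was 0.02 with bins of 0.5 and did not pass there (adjusted p = 0.144). Against M-Microglia it was -0.01 ± 0.0247 (exact sign flips, adjusted p = 0.0938). These direct comparisons covered fewer nuclei, 294 of 427 (68.9%) for M-OPC and 335 (78.5%) for M-Microglia. M-OPC and M-Microglia were not compared with each other.

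The mitochondrial share of UMIs was slightly higher in the mitotic astrocytes. Pooled over the nuclei of a library it was 4.24% to 4.57% (mean 4.40% ± 0.122, n = 8), against 4.27% ± 0.0955 in non-mitotic astrocytes, and it ranked first among the 20 classes in 5 of 8 libraries. The difference, 0.13 ± 0.0777 percentage points, was positive in 8 of 8 libraries (exact sign flips, adjusted p = 0.00925). In OPCs and microglia the mitotic nuclei had the lower share, by 0.10 and 0.09 percentage points, in 7 and 6 of 8 libraries. The gap of astrocytes exceeded that of OPCs by 0.23 ± 0.113 and that of microglia by 0.21 ± 0.103 percentage points (exact sign flips, adjusted p = 0.00925 each). Within the mitotic class the share was higher in nuclei with less RNA, at 4.67% in the fifth of nuclei with the fewest UMIs (222 to 1011) and 4.25% in the fifth with the most (2275 to 5729). Among nuclei of at least 1000 UMIs the difference from other astrocytes was 0.11 percentage points and still passed (exact sign flips, adjusted p = 0.0121).

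**Figure D5:**
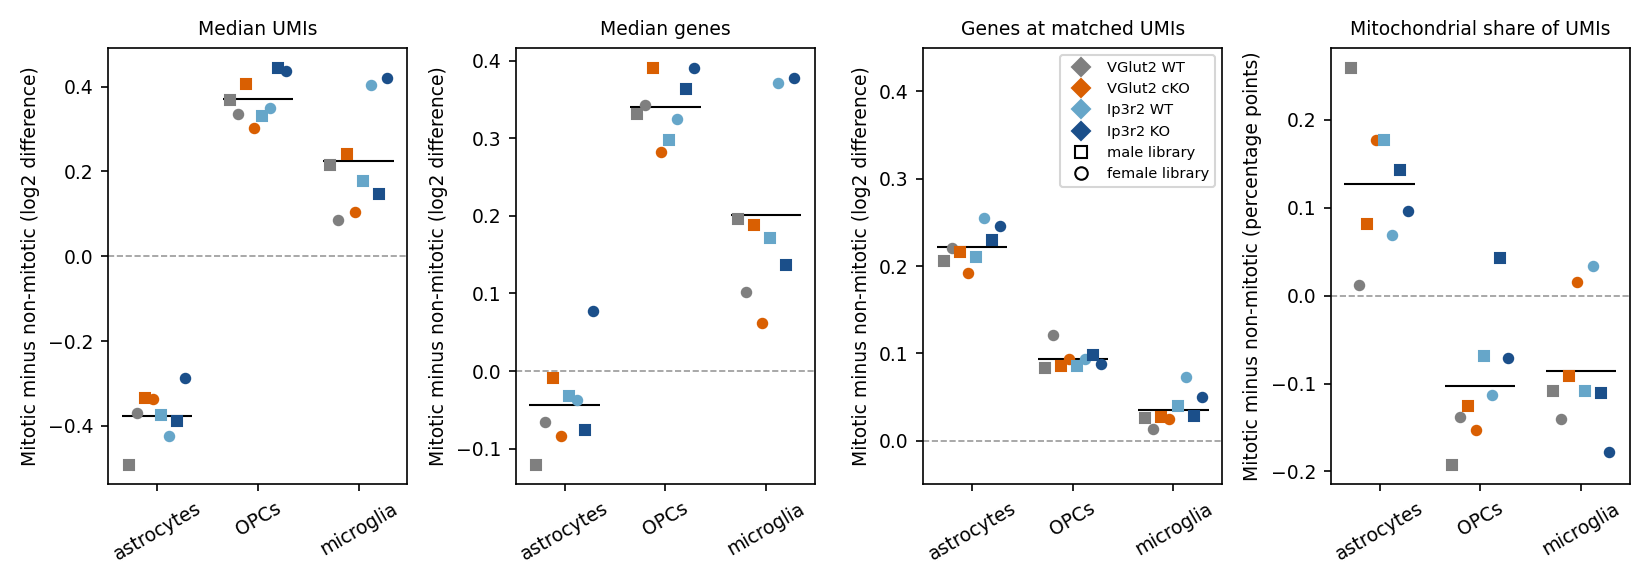
Mitotic minus non-mitotic nuclei in astrocytes, OPCs and microglia for median UMIs, median genes and genes at matched UMIs (log2 differences) and for the mitochondrial share of UMIs (percentage points), 1 point per library with the mean as a line. The astrocyte gap in UMIs is negative in 8 of 8 libraries and those of OPCs and microglia are positive, while the astrocyte gap in genes at matched UMIs is the largest of the 3.

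UMIs and genes per nucleus were also compared between genotypes, and no difference was detectable. The UMIs of the median mitotic astrocyte differed by 0.18 on the log2 scale between VGlut2 cKO and WT (95% interval -0.21 to 0.57; limma adjusted p = 0.960) and by 0.08 between Ip3r2 KO and WT (-0.31 to 0.48; adjusted p = 1.0), with 0 of 15 classes called in each (0%; 0 at an unadjusted p under 0.05). Genes differed by 0.11 (-0.21 to 0.42; limma adjusted p = 0.923) and 0.05 (-0.27 to 0.36; adjusted p = 0.996), also with 0 of 15 called in each (0%; 0 at an unadjusted p under 0.05). The VGlut2 value moved with single cKO libraries, of which the male one was the shallowest of the 8. Without that library, UMIs were 0.41 higher in cKO (limma adjusted p = 0.0142, 8 of 15 classes called), and without the female cKO library 0.06 lower on the log2 scale (-0.06, adjusted p = 0.760, 1 of 15 called). Each of these fits has cKO mice of only 1 sex and WT mice of both. The lower UMIs of mitotic against other astrocytes averaged -0.38 in the VGlut2 and -0.37 in the Ip3r2 libraries, and the excess of genes at matched UMIs 0.21 and 0.24. Spread, tails, genes at matched UMIs and the mitochondrial share were not tested between genotypes.

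In the authors' UMAP, a map that places nuclei with like expression near each other, mitotic astrocytes lay mostly beside nuclei of their own class. Of the 15 nearest neighbours of each of the 427 nuclei, 96.0% were mitotic astrocytes themselves, between 91.9% and 99.0% by library. The other neighbours were mainly Deep-Astro (1.58%), endothelial cells (EC, 1.01%) and M-OPC (0.609%), and none was from Upper-Astro-1, Upper-Astro-2 or WM-Astro. By the same measure, neighbours of the own class were 99.2% for M-OPC, 77.9% for M-Microglia and 66.5% to 75.4% for the 4 astrocyte groups. The nearest nucleus of any other class was from M-Microglia for 182 of 427 mitotic astrocytes (42.6%), from Deep-Astro for 161 (37.7%) and from NeuronLike-Gad1, a neuron-like class, for 57 (13.3%). When only the 4 astrocyte groups were searched, it was from Deep-Astro for 422. Only 2 of 447 M-Microglia nuclei lay as near to a mitotic astrocyte as the distance used below to join nuclei. For Deep-Astro it was 101 of 1852. For M-OPC it was 13 of 353, all of them beside the separate set of 21 mitotic astrocytes described below. M-OPC was the nearest other class for only 10 of 427. The median UMAP distance to the nearest mitotic astrocyte, from that set or any other, was 6.68 for M-Microglia, 1.45 for Deep-Astro and 1.02 for M-OPC. The count of 182 therefore does not make M-Microglia the closest class. In the authors' t-SNE, another such map, the nearest other class was Deep-Astro for 166 nuclei and M-Microglia for 97, and among the astrocyte groups Deep-Astro for 291 and Upper-Astro-2 for 135. The order of the median distances changed there, with 5.75 for Deep-Astro, 7.11 for M-OPC and 8.48 for M-Microglia. These maps were made from the same expression as the class names, so the positions describe the classes and are no test of them.

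A few mitotic astrocytes lay apart from the rest. With nuclei joined at a distance of 0.5 in the UMAP, 400 of 427 formed 1 set, which came from 8 of 8 libraries. A further 21, also from 8 libraries, lay beside M-OPC and OPC nuclei, with a median of 1198 UMIs against 1699.5 in the main set. Another 5, from 3 VGlut2 libraries, lay among EC, and 1 among mature oligodendrocytes.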

How the data were processed

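Per the study's methods, the authors aligned reads with Cell Ranger (mm10), discarded barcodes with fewer than 200 genes, removed doublets with Scrublet in each sample, combined the samples with Scanorama, clustered with Leiden and named the clusters from markers. The input was the authors' table of nuclei, 1 line each. Its UMIs and detected genes are deposited counts. The mitochondrial value is a fraction as deposited: times the UMIs it was whole within 0.01 in 44021 of 44021 nuclei. The embedding coordinates are deposited scores with no unit.

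Class counts became log2 odds (pseudocount 0.5) over 17 classes, the 4 astrocyte groups joined, and 10 log2 ratios. These, and log2 medians in the 15 classes with at least 20 nuclei per library, were fitted with limma 3.58.1 (R 4.3.3) over 8 libraries, with Benjamini-Hochberg adjustment and a threshold of 0.05. For ratios, medians and the sex contrasts of shares limma gave all items of a contrast 1 standard error. edgeR 4.0.16 was the alternative for shares. Class differences within libraries were tested by exact sign flips, adjusted over 45. Other alternatives were filters on UMIs and genes, bin width, means, blocks for sex or the same-sex pair, a centred log ratio and leaving out each library. Scripts were tested on simulated data. Replicate numbers follow accession order. By the study's methods a WT and a mutant sample shared each day of processing, but the labels do not say which, so the main fits had no block and the same-sex pair was a block in an alternative. Planned correlations of the mitotic share across libraries are not given, because the share fell into 2 separate sets of 4 libraries. No gene is named with a value. Classes, comparisons and lists were chosen with earlier results of these data known.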

Additional observations from a re-analysis of the deposited data

Results flagged for a closer look

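The gap between mitotic and non-mitotic nuclei differed between lineages in each of the 10 tests made (exact sign flips over 8 libraries, adjusted p = 0.00925 each). Astrocytes minus OPCs gave -0.75 for log2 UMIs, -0.38 for log2 genes, 0.23 percentage points for the mitochondrial share, 0.13 for log2 genes at matched UMIs and 0.33 for the SD of log2 UMIs. Astrocytes minus microglia gave -0.60, -0.24, 0.21, 0.19 and 0.29 in the same order. The values for the SD did not pass among nuclei of at least 500 genes or at least 1000 UMIs.

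One library stood apart from the others of its sex. The female VGlut2 WT library had a median of 1517 UMIs per mitotic astrocyte, against 1884 to 1935 in the other 3 female libraries. It was the only one found in 21 sets of values examined this way, of which chance alone marks about 1 in 20. The deposited library medians over all classes were 1613 UMIs there and 1876 to 2242 in the other female libraries, and the part of depth in the value was not tested.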

How the results depend on the processing

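Of 45 tests within libraries 42 passed, against 34 to 43 under the other settings and 42 or 43 without a library. Over 540 alternative values of these tests 521 kept direction and side of the threshold. Those that turned were, with means of log2 values, UMIs against Deep-Astro (-0.034) and genes against WM-Astro (-0.094), with bins of 0.5 genes at matched UMIs against M-Microglia (0.0056), and among nuclei of at least 1000 UMIs genes against Upper-Astro-2 (0.043) and all astrocytes (0.042) and the spread gap against microglia (-0.058). The spread comparisons with all astrocytes, Upper-Astro-1, Upper-Astro-2, WM-Astro and M-OPC lost their call among nuclei of at least 1000 UMIs. The mitotic share against OPCs and microglia passed among nuclei of at least 1000 UMIs (-0.41 and -0.93 in log2 odds). Genotype values of the share were near 0 and turned with single libraries, with no call: leaving out each library, VGlut2 ran from -0.48 to 0.42, Ip3r2 from -0.18 to 0.051, their difference from -0.42 to 0.48 (also -0.028 with the UMI filter) and the control lines from -0.48 to 0.42, where 1 class other than mitotic astrocytes was called without VGlut2 WT replicate 2 or Ip3r2 WT replicate 2. The ratio to astrocytes ran from -0.36 to 0.56 (VGlut2) and -0.35 to 0.15 (Ip3r2). VGlut2 UMIs ran from -0.055 to 0.41 and genes from -0.040 to 0.26. Blocks for sex or the same-sex pair changed no call. Female minus male stayed negative throughout. The ratio to astrocytes ran from -0.70 to -0.56 without a library (0 to 3 ratios called; 0 with the UMI filter), the permutation value from -0.70 to -0.58, and passed without Ip3r2 KO replicate 2 (-0.66, adjusted p = 0.0429, exact permutation). The VGlut2 gap in share ran from -0.90 to -0.79, and was -0.84 with edgeR (1 class called) and -0.73 with a centred log ratio. The neighbour share was 92.5% for 50 neighbours. The cause of these changes was not tested. With 38 to 77 mitotic astrocytes per library, counting error alone limits a share.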
